A study of Mus musculus with 42 samples.

Results

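The comparison described here is between whole kidneys of KspCre double knockout (DKO) mice and of control mice, both given vehicle, with 3 mice in each group: 6 libraries, chosen by their labels, of 42 in the series. RNA was sequenced after poly-A capture from pieces of kidney of mixed cell type, taken at P50 (postnatal day 50) from mice on a C57BL/6 background. DKO mice carried floxed alleles of both Tsc2 and Tfeb and KspCre, a Cre recombinase driven by the cadherin 16 promoter, which is active in tubular epithelium and not in vessels, podocytes, stroma or blood cells. Control mice are labelled wild type and are described in the methods as Cre-negative. Both groups were treated on the schedule of the rapamycin arm of the same cohort, 11 intraperitoneal injections from day 25, 3 per week, of vehicle alone. Further libraries serve as reference points: 3 kidneys with KspCre-driven loss of Tsc2 alone (Tsc2 KO) given vehicle in the same cohort, and 6 untreated kidneys (3 DKO and 3 control mice at P50) of another KspCre cohort, which share no library with the vehicle cohort. The question was how far the transcriptome of a kidney without TSC2 remains from control once TFEB is lost as well.

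TSC2 is the GTPase-activating subunit of the tuberous sclerosis complex, which keeps the small GTPase Rheb inactive and so restrains the kinase complex mTORC1, a driver of protein, lipid and nucleotide synthesis. TFEB is a transcription factor of the MiT/TFE family that binds CACGTG-containing elements before genes of lysosomal hydrolases, the lysosomal membrane and the proton pump V-ATPase. Its relatives TFE3 and MITF recognise the same letters, and mTORC1 holds these factors in the cytoplasm through the Rag GTPases. In people, loss of TSC1 or TSC2 leads to renal cysts and angiomyolipomas.

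Libraries held between 17326309 and 20077360 counted reads in controls and between 18426751 and 22228206 in DKO kidneys. Several libraries held transcripts known as markers of other tissues. Where these transcripts came from was not tested. The 16-gene adrenal cortex list summed to 53.3, 32.8 and 41.0 FPKM (fragments per kilobase and sequencing depth) in controls 1, 2 and 3 and to 397, 4943 and 46.3 FPKM in DKO 1, 2 and 3. Adrenal medulla markers were raised in DKO 2 alone, at 37.8, 778 and 36.9 FPKM in the DKO libraries against 50.4, 40.9 and 56.3 in controls. The 5-gene erythroid list, which holds the globins, stood at 2059, 2153 and 364 FPKM in DKO against 200.4, 301 and 288 in controls. The fat and urothelial lists varied within both groups: DKO kidneys held 478, 801 and 1092 FPKM of the former and 2.44, 22.7 and 82.2 FPKM of the latter. Control 3 held 12.9 FPKM of the adipose list and 1.75 FPKM of the urothelial list. Controls 1 and 2 held 1178 and 1053 FPKM of the former and 44.7 and 58.6 FPKM of the latter. DKO 3 was thus the DKO library within the control range for adrenal cortex. Its erythroid genes lay slightly above their control range, and its urothelial level was the highest of the 6 kidneys. The main counts below are also given for DKO 3 alone against the controls. The part of these tissues in the results was not tested beyond that and a fit with the adrenal level as a covariate. Nephron markers were present in all libraries: proximal tubule genes, for example, summed to between 7455 and 18832 FPKM in the 6 kidneys.

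**Figure D1:**
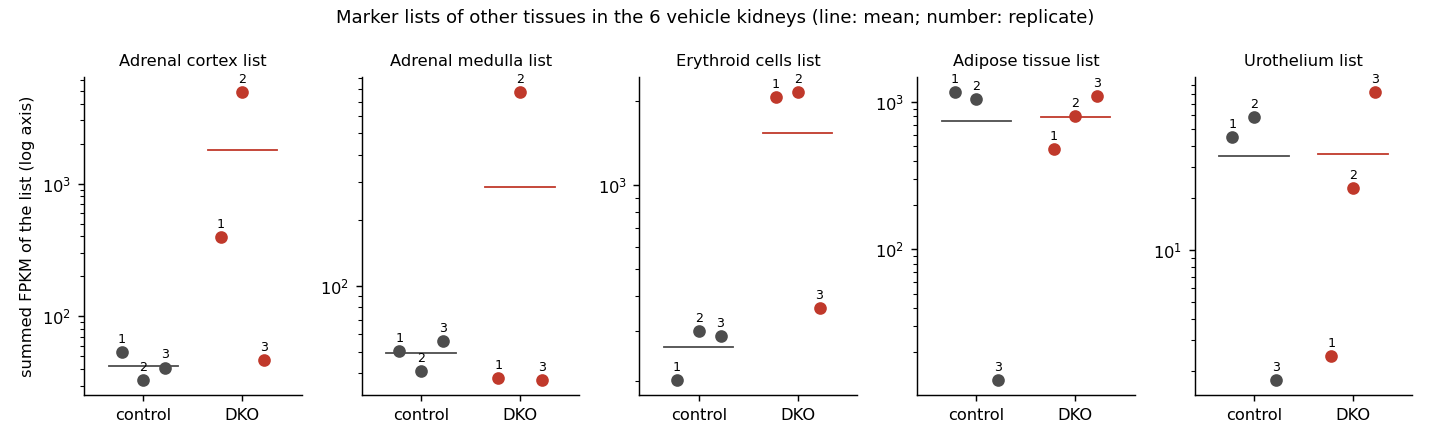
Summed FPKM of the marker lists of adrenal cortex, adrenal medulla, erythroid cells, adipose tissue and urothelium in each of the 6 vehicle kidneys (logarithmic axes; points are libraries with their replicate number, lines are group means). DKO 1 and 2 lie above every control for adrenal cortex and erythroid genes, DKO 3 lies near the controls for adrenal cortex, and control 3 is low in adipose and urothelial genes.

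The targeted genes were lower in every DKO library. Tsc2 (chromosome 17, 24595816 to 24632630, mm10) was at 8.59, 9.65 and 9.81 FPKM in controls 1, 2 and 3 and at 5.53, 6.41 and 6.29 FPKM in DKO 1, 2 and 3, without overlap. It fell by 0.62 ± 0.10 (SE, n = 3 per group) on the log2 scale (edgeR quasi-likelihood test, adjusted p = 0.0026). Tfeb (chromosome 17, 47737030 to 47792419) was at 4.64, 3.89 and 4.70 FPKM in controls and 3.18, 2.65 and 2.57 FPKM in DKO kidneys, also without overlap. Its log2 fold change was -0.66 (adjusted p = 0.047; up to 0.14 with 1 library left out), though its level lay under the 5 FPKM required for a call. Counts cover all exons of each gene and all cells of the kidney, including those in which KspCre is not active. Of the other MiT/TFE factors, Tfe3 differed by 0.13 (adjusted p = 0.57) and Mitf by -0.51 (adjusted p = 0.073).

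Among genes that the study follows in kidney, 2 lay between control and Tsc2 KO level. Gpnmb, a transmembrane glycoprotein of lysosomes and melanosomes and a known MiT/TFE target, was at 0.0645, 0.188 and 0.0284 FPKM in controls and 0.219, 0.544 and 1.19 FPKM in DKO kidneys, against 18.7, 17.0 and 18.4 FPKM in Tsc2 KO kidneys. All 3 DKO libraries lay above the controls and far below Tsc2 KO: the difference from control was 2.80 ± 0.89 on the log2 scale and did not pass the test (adjusted p = 0.072). That from Tsc2 KO was -4.77 (adjusted p = 0.00029). In the untreated cohort Gpnmb was at 0.0393, 0.0297 and 0.0171 FPKM in controls and 4.60, 1.80 and 0.502 FPKM in DKO kidneys. The difference passed the test on p (adjusted p = 0.0049) at a level under 5 FPKM. Mthfd2, a mitochondrial folate enzyme, was 1.26, 1.201 and 1.36 FPKM in controls, 3.29, 3.35 and 3.03 FPKM in DKO and 8.18, 7.30 and 6.86 FPKM in Tsc2 KO kidneys. The 3 genotypes did not overlap for Mthfd2. It was 1.34 ± 0.19 log2 units above control (adjusted p = 0.00075) and -1.21 log2 units from Tsc2 KO (adjusted p = 0.00022), again under the 5 FPKM required for a call. Rragd, which encodes a Rag GTPase, rose from 15.3, 16.9 and 23.3 FPKM to 36.3, 22.5 and 32.5 FPKM, with DKO 2 below control 3. Its log2 fold change of 0.72 (adjusted p = 0.039) no longer passed when control 1, control 2, DKO 1 or DKO 3 was left out (highest adjusted p = 0.14). Its partner Rragc differed by 0.15 (adjusted p = 0.55), and Lamtor1, a Ragulator subunit that anchors the Rag GTPases to the lysosome, by 0.46 (adjusted p = 0.1).

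Over all genes, 17027 were tested and 7735 had a mean of at least 5 FPKM in one of the groups. A gene is called here at an adjusted p of 0.05 or lower together with that level. Of the genes at that level 415 (5.37%) were called increased in DKO kidneys and 236 (3.05%) decreased. Among the increased genes 163 rose more than 2-fold, with a median log2 fold change of 0.84 over all 415; among the decreased genes 46 fell more than 2-fold, with a median of -0.70. In 404 of the increased genes all 3 DKO libraries lay above all 3 controls, and in 234 of the decreased genes all lay below. In DKO 3 alone, which is 1 of these libraries, the median was 0.72 over the 415 increased genes and -0.62 over the 236 decreased genes. Tested alone against the controls, with the lone library assumed to vary like the other groups, DKO 3 gave 96 increased genes (1.25% of those at 5 FPKM) and 2 decreased genes (0.026%). In both comparisons 89 of the 415 increased and 2 of the 236 decreased genes were called. The counts moved by more than 1.5 times with single libraries: without control 2 they were 230 increased and 139 decreased, without control 3 178 and 62, and the decreased genes numbered 131, 85 and 116 without DKO 1, 2 and 3. For DKO 3 alone, leaving out control 3 gave 52 increased and 1 decreased, and leaving out control 1 gave 4 decreased. DKO 2 was the lowest of the DKO libraries for 43.4% of the increased and 65.3% of the decreased genes, against 50.3% of all genes at 5 FPKM.

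The largest increases among called genes came from steroid and chromaffin genes and did not hold in DKO 3. Star, which delivers cholesterol to the mitochondrial inner membrane for steroid synthesis, was at 1.01, 1.19 and 1.15 FPKM in controls and 64.0, 775 and 1.03 FPKM in DKO 1, 2 and 3. Cyp11a1, the side-chain cleavage enzyme, was at 0.0219, 0.0121 and 0.0128 and 14.0, 181 and 0.0384 FPKM. Hsd3b1, a later steroid dehydrogenase, was at 0.311, 0.439 and 0.266 and 113, 1636 and 0.249 FPKM in the same order. Mgarp, a mitochondrial protein of steroidogenic tissue, was at 0, 0.0844 and 0 and 5.77, 77.0 and 0.0447 FPKM. Chgb, a granin of chromaffin granules, was at 0, 233 and 0.0169 FPKM in the DKO libraries and so was raised in DKO 2 alone. These 5 genes passed the test in the comparison of 3 with 3 (adjusted p between 0.018 and 0.04), and with DKO 1 and 2 left out none did (lowest adjusted p = 0.91). The 3 globin genes called, Hba-a1, Hbb-bs and Hbb-bt, were also highest in DKO 1 and 2, and each lost its call in 5 of the 6 fits without 1 library (adjusted p up to 0.12, 0.13 and 0.095). Hba-a1 was at 724, 849.7 and 123 FPKM in DKO against 79.8, 90.0 and 113 FPKM in controls. Reads of the near-identical globin copies could be split differently by other counting. In all, 24 of the 415 increased genes changed less than 0.5 times as much on the log2 scale in DKO 3 alone as in the 3 libraries, among them Soat1, a cholesterol acyltransferase on the adrenal cortex list. All 236 decreased genes changed at least 0.5 times as much in DKO 3 alone. DKO 3 is one of the libraries that made these calls, so its likeness to them in the other genes is no separate evidence. A fit with the adrenal cortex level as a covariate, chosen after the data were seen, called 217 increased and 46 decreased genes.

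**Figure D2:**
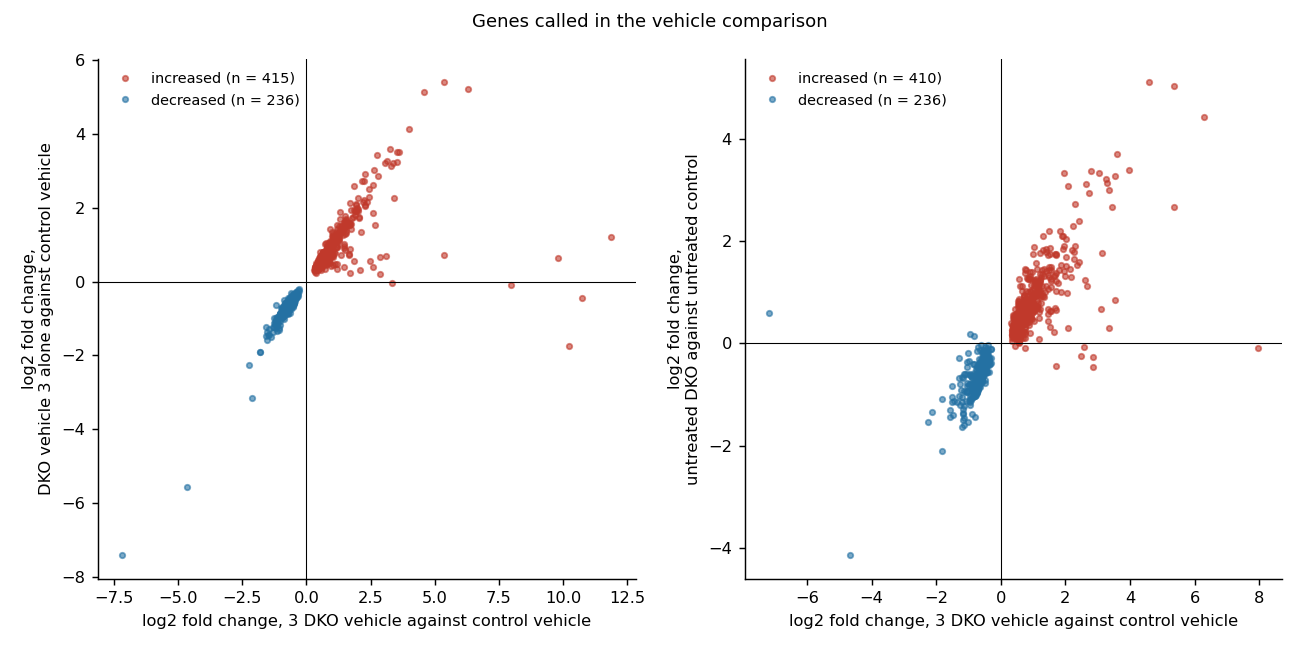
Log2 fold changes of the genes called in the comparison of 3 DKO with 3 control vehicle kidneys (horizontal axes) against those of DKO 3 alone (left) and of the untreated cohort (right); each point is a gene, red increased and blue decreased. Steroid and chromaffin genes are the points far to the right that lie near or below 0 on the left panel's vertical axis. DKO 3 is also one of the 3 libraries of the horizontal axis, so likeness on the left is partly fixed; on the right, where no library is shared, 402 of 410 increased genes are above 0.

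The leading increased genes outside this group were the 12 protein-coding genes with the largest increase among those called both with and without DKO 1 and 2 and with every DKO library above every control. Ttr, the carrier of thyroid hormone and of retinol-binding protein, was at 41.9, 24.3 and 44.7 FPKM in controls and 889, 490.4 and 1292 FPKM in DKO kidneys, 4.59 ± 0.56 on the log2 scale (adjusted p = 0.00025). Gc, the vitamin D-binding protein, went from 78.2, 73.7 and 95.8 FPKM to 688, 198 and 667 FPKM (log2 fold change 2.65 ± 0.38, adjusted p = 0.00084). Both are abundant plasma proteins, and in both DKO 2 was the lowest of the 3, yet above every control. Rnase1, a secreted ribonuclease, was at 0.106, 0.821 and 0.0621 FPKM in controls and 37.2, 29.3 and 12.2 FPKM in DKO kidneys, the largest change of the 12 (6.29 ± 0.97, adjusted p = 0.0017). Aqp8, a water channel, was at 0.863, 0.0368 and 0.390 FPKM and 17.0, 19.3 and 18.4 FPKM (5.36 ± 0.75, adjusted p = 0.00069), with little spread among the DKO libraries. Fetub, the secreted protease inhibitor fetuin B, rose from 0.803, 1.54 and 1.79 FPKM to 23.5, 17.6 and 23.7 FPKM. Ptgds, a prostaglandin D synthase that is also a secreted lipid carrier, rose from 4.58, 2.29 and 2.77 FPKM to 57.0, 18.6 and 36.8 FPKM.

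Of the 12, Guca2a and Cck encode peptide hormones. Guca2a encodes guanylin, a ligand of guanylate cyclase C known from the gut, and was at 6.27, 4.80 and 5.40 FPKM in controls and 51.6, 61.0 and 48.2 FPKM in DKO kidneys (3.28 ± 0.36, adjusted p = 0.00012). Its relative Guca2b, uroguanylin, lies beside it on chromosome 4 and moved the other way, from 246, 176 and 270.3 FPKM to 70.6, 80.9 and 82.0 FPKM (-1.57 ± 0.30, adjusted p = 0.0071). The groups did not overlap for either gene, which the rules that chose these genes required. Cck, the peptide hormone cholecystokinin, rose from 2.82, 5.62 and 2.27 FPKM to 44.9, 45.3 and 33.7 FPKM (log2 fold change 3.53, adjusted p = 0.00049). The remaining members were Aoc1, the diamine oxidase that degrades histamine and putrescine (3.04), Tchhl1 (3.26), Oasl1, an interferon-induced gene (2.80), and Pigz, a mannosyltransferase of GPI-anchor synthesis (2.74), with adjusted p between 0.0004 and 0.0091. When any single library was left out, 10 of the 12 kept their call; Oasl1 and Pigz kept their adjusted p but fell under 5 FPKM without DKO 1 or without DKO 3.

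By the same rule only Akr1c14 and Slco1a6 were named among the decreased genes, the others not being called without DKO 1 and 2. Akr1c14, a 3-alpha-hydroxysteroid dehydrogenase, was at 37.6, 36.8 and 24.4 FPKM in controls and 9.41, 9.80 and 8.71 FPKM in DKO kidneys (-1.83 ± 0.20, adjusted p = 0.00012). In DKO 3 alone the change was -1.91 (adjusted p = 0.011). The Akr1c genes are a family of close copies, between which reads can be split. Slco1a6, an organic anion transporter, fell from 90.3, 78.2 and 77.4 FPKM to 30.3, 26.4 and 33.4 FPKM (-1.45 ± 0.18, adjusted p = 0.00038; in DKO 3 alone -1.29, adjusted p = 0.0496). Both kept the call without any single library. The 8 largest decreases among protein-coding genes with DKO below all controls were looked up after their values had been seen. Besides Akr1c14 and Guca2b they were Serpina6, the corticosteroid-binding globulin (-4.65), C8a, a complement component (-2.24), Gm10681 (-2.12), Hsd17b14, a 17-beta-hydroxysteroid dehydrogenase (-1.81), Mfsd2a, a lysophospholipid transporter (-1.57), and Aadat, the aminoadipate and kynurenine aminotransferase (-1.52). Aadat, for instance, was at 756, 460.4 and 663 FPKM in controls and 206, 240.0 and 209 FPKM in DKO kidneys, and Hsd17b14 at 17.8, 7.68 and 16.8 and 3.29, 5.10 and 3.72 FPKM. Of these Hsd17b14 and Guca2b passed the test in each fit without 1 library. Serpina6, Mfsd2a and Aadat passed in none of them (lowest adjusted p 0.06, 0.063 and 0.064), C8a failed in 3 (highest adjusted p 0.069) and Gm10681 in 4 (highest adjusted p 0.075).

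**Figure D3:**
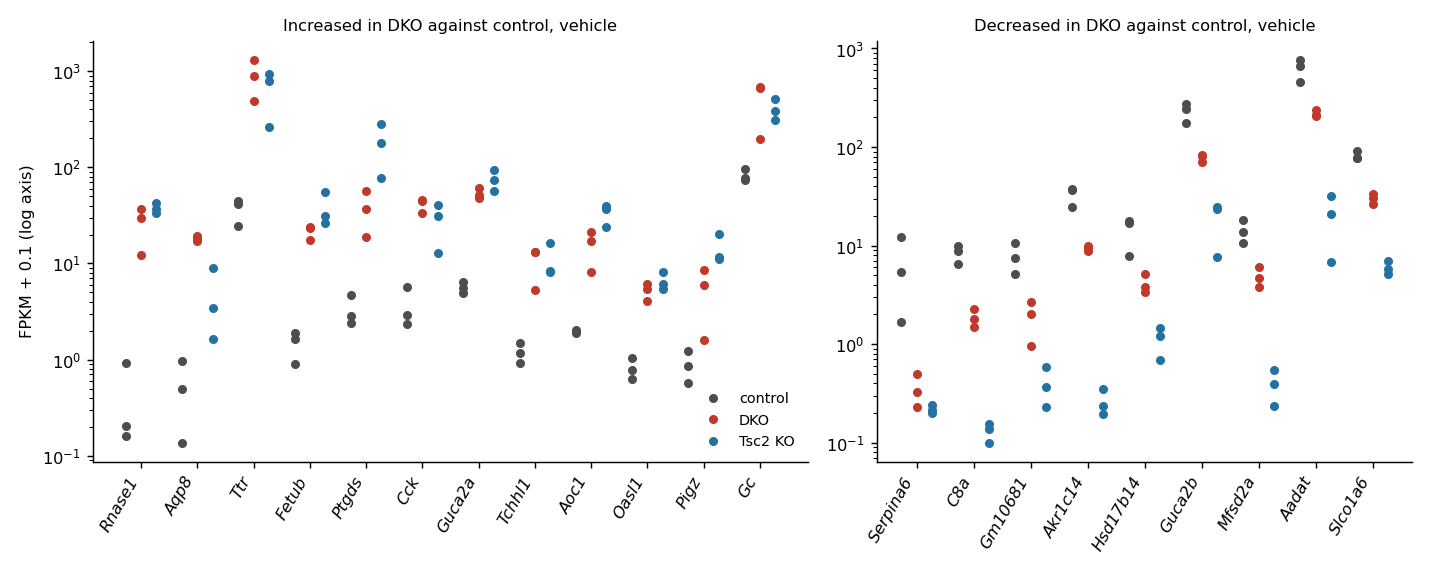
FPKM plus 0.1 (logarithmic axes) of the 12 leading increased genes and of the leading decreased genes in each vehicle kidney; points are libraries, grey control, red DKO, blue Tsc2 KO. Every DKO point lies outside the control range, as the rule that chose these genes requires. For the decreased genes the DKO points lie between control and Tsc2 KO, except Serpina6, where DKO and Tsc2 KO overlap.

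Genes of the lysosome, the organelle under TFEB control, were above control level in DKO kidneys in part. Of 55 lysosomal hydrolases and cofactors 49 reached 5 FPKM, 10 were called increased and 0 decreased, against a background of 5.37% increased over all genes. The median of the list, taken like every list median over all its tested members, was 0.26 on the log2 scale, that of all tested genes 0.01. Hexa, the alpha subunit of beta-hexosaminidase, had the largest change of the called members, from 28.7, 33.9 and 28.1 FPKM to 101, 76.0 and 91.6 FPKM (1.56 ± 0.23, adjusted p = 0.00093). Psap, the precursor of the sphingolipid-binding saposins, rose from 549, 409.9 and 505 to 1354, 814 and 1369.7 FPKM (1.27 ± 0.20, adjusted p = 0.002). Ctsc, a cysteine protease, rose from 5.77, 3.94 and 4.68 to 14.3, 9.21 and 11.9 FPKM (1.30, adjusted p = 0.00039). Gusb, beta-glucuronidase, rose from 7.82, 7.71 and 6.42 to 13.4, 13.0 and 12.5 FPKM (0.83, adjusted p = 0.00049). In each of these 4 genes the DKO libraries lay above all controls, and the calls held without any single library and in DKO 3 alone (adjusted p 0.016, 0.0031, 0.0032 and 0.033). The other 6 increased members were the cathepsins Ctsb, Ctsd and Ctsl, the cholesterol-binding Npc2, and the lipases Pla2g15 and Plbd2, with log2 fold changes between 0.78 and 1.17. In DKO 3 alone the median of the list was 0.30, that of all tested genes -0.01. Of 18 lysosomal membrane proteins 2 were called increased, against 5.37% over all genes (median 0.15). Clcn7, a chloride-proton exchanger, rose from 8.81, 8.85 and 9.30 to 15.5, 14.4 and 14.9 FPKM (0.73 ± 0.10, adjusted p = 0.00055). Ostm1, its partner subunit, rose from 3.96, 4.83 and 3.58 to 5.74, 5.38 and 5.81 FPKM (0.45, adjusted p = 0.035; adjusted p up to 0.17 with 1 library left out).

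Subunits of the V-ATPase, which acidifies lysosomes and, on the plasma membrane of intercalated cells, secretes protons into urine, were called increased for 10 of 22 members at 5 FPKM and decreased for 0 (median 0.38). In DKO 3 alone 2 were called increased (median 0.47), and in the untreated cohort 4 (median 0.22). The shares of all genes called increased in these 3 comparisons were 5.37%, 1.25% and 2.33%. The 4 with the lowest adjusted p included 3 subunit isoforms known from intercalated cells. Atp6v0d2 rose from 17.4, 23.3 and 26.0 FPKM to 68.0, 38.9 and 62.6 FPKM (1.35 ± 0.21, adjusted p = 0.0017). Atp6v1g3 rose from 34.5, 14.4 and 32.1 to 96.4, 57.2 and 85.2 FPKM (1.56, adjusted p = 0.0093). Atp6v1c2 rose from 19.0, 18.5 and 19.9 to 47.7, 27.7 and 42.3 FPKM (1.03, adjusted p = 0.0049). Atp6ap1, an accessory subunit, rose from 80.2, 85.7 and 85.2 to 136, 106 and 119.6 FPKM (0.53, adjusted p = 0.0093). All 4 kept the call without any single library, but in DKO 3 alone Atp6v1g3 (adjusted p = 0.081) and Atp6ap1 (0.11) did not pass; DKO 2 was the lowest DKO library for each. Of the 16 markers of intercalated cells 4 were called increased, with a median of 0.55. In DKO 3 alone 1 was called, and in untreated mice 1, against the same 3 shares over all genes. They include Atp6v0d2 and Atp6v1g3, which are on both lists. Foxi1, the transcription factor that specifies this cell type, rose from 22.7, 15.0 and 25.1 to 42.4, 32.4 and 45.0 FPKM (0.93, adjusted p = 0.011). The ammonia channel Rhcg rose from 59.2, 54.0 and 71.6 to 122, 74.5 and 98.1 FPKM (0.67, adjusted p = 0.03; adjusted p up to 0.13 with 1 library left out). In whole kidney, more cells of a type and more RNA per cell cannot be told apart.

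Because TFEB, TFE3 and MITF all bind CACGTG, the promoters of these lists were searched for those 6 letters, which read the same on both strands. Promoter windows from 250 bases before to 50 bases after the start site were taken from RefSeq (GRCm38.p6, the assembly behind mm10), which held 83 of the 104 tested genes of the lysosomal and V-ATPase lists. The letters were present in 4 of 18 increased members (22.2%), in 18 of 65 members not called increased (27.7%) and, counted by gene in the same way, in 8.09% of all 27025 genes of the table (7.15% of its 32851 promoters). The share in called members was not above that in uncalled members of the lists. The promoters of the 4 increased members that hold the letters are shown because they are the called genes in which they stand. Capitals mark CACGTG and the rest is lower case, each read 5′ to 3′ on the gene's strand.
Clcn7: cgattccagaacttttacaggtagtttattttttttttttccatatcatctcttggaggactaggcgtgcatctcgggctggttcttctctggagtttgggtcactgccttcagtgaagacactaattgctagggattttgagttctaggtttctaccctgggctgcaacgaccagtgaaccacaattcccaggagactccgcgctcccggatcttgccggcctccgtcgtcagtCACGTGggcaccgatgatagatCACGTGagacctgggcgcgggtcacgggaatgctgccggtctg
Ctsd: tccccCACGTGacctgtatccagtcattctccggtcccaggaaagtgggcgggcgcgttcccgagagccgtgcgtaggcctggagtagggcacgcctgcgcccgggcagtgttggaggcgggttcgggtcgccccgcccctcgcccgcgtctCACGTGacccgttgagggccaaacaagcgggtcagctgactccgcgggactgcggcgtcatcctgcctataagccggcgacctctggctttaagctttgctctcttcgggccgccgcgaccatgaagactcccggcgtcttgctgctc
Atp6v0b: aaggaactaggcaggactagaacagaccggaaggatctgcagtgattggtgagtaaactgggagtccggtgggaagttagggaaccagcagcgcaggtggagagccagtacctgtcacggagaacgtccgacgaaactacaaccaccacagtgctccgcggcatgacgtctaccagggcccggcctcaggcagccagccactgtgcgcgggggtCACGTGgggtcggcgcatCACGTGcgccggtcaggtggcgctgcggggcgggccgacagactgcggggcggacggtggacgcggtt
Ctsl: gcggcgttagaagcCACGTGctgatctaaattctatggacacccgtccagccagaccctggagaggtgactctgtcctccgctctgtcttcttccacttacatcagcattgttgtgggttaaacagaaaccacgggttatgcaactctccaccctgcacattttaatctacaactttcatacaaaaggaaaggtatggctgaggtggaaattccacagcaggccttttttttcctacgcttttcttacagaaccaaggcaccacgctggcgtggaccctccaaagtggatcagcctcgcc
The windows lie at chr17:25133141-25133440 (plus strand) for Clcn7, chr7:142387778-142388077 (minus strand) for Ctsd, chr4:117887280-117887579 (minus strand) for Atp6v0b and chr13:64370471-64370770 (minus strand) for Ctsl. Clcn7 has the letters at positions -15 and 7 relative to the annotated start site, Atp6v0b at positions -36 and -18, Ctsd at positions -245 and -98 and Ctsl once, at position -236. Ctsd, the main aspartyl protease of lysosomes, was at 208, 108 and 169 FPKM in controls and 418, 303 and 349 FPKM in DKO kidneys (1.14, adjusted p = 0.012; 0.051 without control 2). This compares with 751, 642 and 591 FPKM in Tsc2 KO kidneys. Ctsl, a cysteine protease, was at 96.2, 85.5 and 84.7 and 268, 118 and 211 FPKM (1.17, adjusted p = 0.0076). Atp6v0b, a membrane subunit of the pump, was at 80.0, 54.8 and 68.5 and 128, 88.4 and 114 FPKM (0.70, adjusted p = 0.019; up to 0.086 with 1 library left out).

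Among targets of SREBP, the regulator of sterol and fatty acid synthesis, 8 of 32 were called increased and 0 decreased, and 5 were called increased in DKO 3 alone, against 5.37% and 1.25% increased over all genes (median 0.40 in the 3 libraries and 0.48 in DKO 3). Scd2, a stearoyl-CoA desaturase, rose from 21.1, 28.8 and 29.7 to 82.6, 139 and 103 FPKM (2.02, adjusted p = 0.00037). Insig1, the sterol sensor of the endoplasmic reticulum, rose from 20.8, 19.8 and 15.9 to 49.1, 29.3 and 50.1 FPKM (1.19, adjusted p = 0.002). Fads1, a fatty acid desaturase, rose from 38.4, 43.0 and 38.9 to 69.1, 86.8 and 65.5 FPKM (0.88, adjusted p = 0.0021). DKO and control did not overlap for any of these 3 genes, and each kept its call without any single library. Transcripts of the adipose list were low in control 3 and those of the adrenal cortex list high in DKO 2. Both tissues are known to express several SREBP targets. With the adrenal cortex covariate 8 of 32 were called increased and 0 decreased (median 0.38). In that fit 217 of all 7735 genes at 5 FPKM were increased and 46 decreased. The part of adipose tissue in the list's change was not tested. Without DKO 1 and 2 the call held for Scd2 (adjusted p = 0.0051) and Insig1 (0.0019) but not Fads1 (0.11).

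Targets of ATF4, the transcription factor of amino acid stress through which mTORC1 drives one-carbon metabolism, counted 9 increased and 2 decreased among 27 (median 0.48), against 5.37% and 3.05% over all genes. Ddit4, which restrains mTORC1 under stress, rose from 15.1, 7.82 and 10.2 to 45.5, 42.2 and 44.0 FPKM (1.99 ± 0.32, adjusted p = 0.0021). Psat1, an enzyme of serine synthesis, rose from 6.75, 8.56 and 5.87 to 22.5, 17.0 and 20.0 FPKM (1.49, adjusted p = 0.0099; 0.057 without control 3). Aars, the alanyl-tRNA synthetase, rose by less, from 9.40, 10.2 and 9.99 to 14.8, 15.4 and 13.1 FPKM (0.55, adjusted p = 0.0054). Cth, which makes cysteine from cystathionine and is abundant in proximal tubule, went down, from 89.0, 81.6 and 108 to 53.3, 49.4 and 53.0 FPKM (-0.84, adjusted p = 0.01; 0.055 without control 3). In DKO 3 alone the median of the list was 0.44, but most of its calls did not hold. With the adrenal cortex covariate 3 of 27 were called increased and 1 decreased (median 0.41). In that fit 217 of all 7735 genes at 5 FPKM were increased and 46 decreased. Of 7 genes of the TSC complex, mTORC1 and its direct substrates at 5 FPKM, not counting the targeted Tsc2, which was called decreased as given above, 0 were called increased and 0 decreased: the most abundant, Eif4ebp2, which encodes a substrate, differed by 0.12 (adjusted p = 0.5) and Akt1s1 by 0.49 (adjusted p = 0.099).

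Proximal tubule, the segment that reabsorbs most of the filtered load, was the nephron segment with most decreased markers. Of 28 markers 5 were called decreased and 0 increased, against 3.05% decreased over all genes, and 24 of 29 tested had a negative log2 fold change in DKO (median -0.43). The endocytic receptor Lrp2, megalin, was at 159, 177 and 155 FPKM in controls and 91.5, 76.8 and 109.8 FPKM in DKO kidneys (-0.82 ± 0.17, adjusted p = 0.011). Its co-receptor Cubn was at 41.5, 50.4 and 43.9 and 27.9, 20.8 and 33.1 FPKM (-0.73, adjusted p = 0.023; up to 0.091 with 1 library left out). Slc3a1, the heavy chain of the cystine transporter, fell from 287, 293 and 316 to 184, 118 and 191 FPKM (-0.86, adjusted p = 0.013). Slc17a3, an organic anion transporter, fell from 34.8, 31.4 and 34.3 to 23.6, 15.0 and 21.7 FPKM (-0.74, adjusted p = 0.013). Without control 3 their adjusted p was 0.057 and 0.051. None of the list was called in DKO 3 alone, where the median was -0.30. With the adrenal cortex covariate 0 of 28 were called, where 46 of all 7735 genes at 5 FPKM were decreased. In that fit 19 of 29 had a negative log2 fold change and the median was -0.10. In the untreated cohort 3 of 28 were called decreased, against 1.56% of all genes there, and 25 of 29 had a negative log2 fold change (median -0.76). Fatty acid oxidation, the main fuel pathway of this segment, had 3 of 32 members called decreased. The peroxisomal enzyme Ehhadh fell from 236, 205 and 222 to 119, 99.9 and 126 FPKM (-0.94 ± 0.20, adjusted p = 0.011). Acadm, the medium-chain acyl-CoA dehydrogenase, fell from 337, 251 and 236 to 149.5, 156 and 146 FPKM (-0.87, adjusted p = 0.006). Cyp4a14, a fatty acid hydroxylase with close copies, fell from 211, 249 and 253 to 101, 114 and 105 FPKM (-1.16, adjusted p = 0.047, lost in every fit without 1 library). The median of that list was -0.19. In DKO 3 alone these calls did not hold, and the median was -0.14. With the adrenal cortex covariate 1 of 32 was called decreased (median -0.07). In the untreated cohort 3 of 32 were called decreased, against 1.56% of all genes there. All 32 had a negative log2 fold change in that cohort (median -0.50). In the renin-angiotensin list Ace, the angiotensin-converting enzyme of the brush border and endothelium, fell from 47.5, 30.6 and 41.9 to 15.5, 17.9 and 19.0 FPKM (-1.20 ± 0.19, adjusted p = 0.0023), without overlap and in each fit without 1 library. Enpep, aminopeptidase A, fell from 40.4, 45.4 and 41.3 to 30.9, 22.1 and 28.7 FPKM (-0.64, adjusted p = 0.049, lost in every such fit).

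Other segments held few called genes. In the thick ascending limb Umod, the urinary protein uromodulin, rose from 1241, 791 and 1066 to 2120.0, 1872 and 2356 FPKM (1.03, adjusted p = 0.016; up to 0.078 with 1 library left out). Slc12a1, the salt cotransporter of the same cells, fell from 371, 312 and 379.8 to 153, 191 and 198 FPKM (-0.98, adjusted p = 0.028; up to 0.097). The groups did not overlap for either gene, so these markers of one segment went in opposite directions. Of its 11 markers 3 had a positive and 8 a negative log2 fold change (median -0.34). Umod and Slc12a1 were the only ones called. In collecting duct principal cells 1 of 10 markers was called increased, against 5.37% of all genes, and 0 decreased. It was the transcription factor Gata3, from 4.41, 4.89 and 5.25 to 6.91, 9.71 and 8.84 FPKM (0.81, adjusted p = 0.042, up to 0.13 with 1 library left out). No marker of the distal convoluted tubule was called; its 2 most abundant, Fxyd2 and Calb1, differed by 0.30 (adjusted p = 0.48) and -0.49 (adjusted p = 0.26). Podocytes, in which KspCre is not active, had 0 of 9 markers called and a median of -0.52. In the untreated cohort 4 of 8 were called decreased and 13 of 13 had a negative log2 fold change (median -0.65). Over all genes 3.05% were decreased with vehicle and 1.56% untreated. Podxl was at 61.7, 57.8 and 74.4 FPKM in controls and 41.8, 43.7 and 40.5 FPKM in DKO kidneys (adjusted p = 0.12). Of the genes mutated in polycystic kidney disease Pkhd1, fibrocystin, was at 13.5, 16.0 and 15.0 FPKM in controls and 9.23, 6.91 and 10.1 FPKM in DKO kidneys (-0.76, adjusted p = 0.046, lost in every fit without 1 library). Glis3, a zinc finger transcription factor, was at 9.05, 9.44 and 11.99 and 7.99, 5.96 and 7.85 FPKM (-0.48, adjusted p = 0.03; up to 0.15).

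Genes of tubular injury were raised in part. Of 16 genes at 5 FPKM 6 were called increased and 1 decreased (median 0.80; 4 called increased in DKO 3 alone). Over all genes 5.37% were increased and 3.05% decreased, and 1.25% increased in DKO 3 alone. Cp, ceruloplasmin, was the decreased gene (-0.94). Cdkn1a, the cell-cycle inhibitor p21, rose from 2.67, 2.82 and 2.67 to 9.73, 9.68 and 9.12 FPKM (1.80 ± 0.24, adjusted p = 0.00051), with little spread within either group. Fgg, the fibrinogen gamma chain, rose from 6.67, 5.34 and 6.13 to 34.6, 9.25 and 45.0 FPKM (2.29 ± 0.41, adjusted p = 0.0042). Tnfrsf12a, the receptor of the cytokine TWEAK, rose from 7.61, 2.53 and 4.34 to 21.1, 13.2 and 15.7 FPKM (1.78, adjusted p = 0.0079). Sox4, a transcription factor, rose from 2.85, 1.58 and 3.12 to 7.90, 6.02 and 6.71 FPKM (1.45, adjusted p = 0.009). These 4 genes kept the call without any single library. Havcr1, which encodes KIM-1 and was looked up after its values had been seen, was at 13.9, 21.5 and 21.4 FPKM in DKO kidneys but at 0.409, 18.7 and 0.133 FPKM in controls. Control 2 thus lay among the DKO values. The log2 fold change was 1.56 ± 1.26 (adjusted p = 0.48), and without control 2 it was 6.07 (adjusted p = 0.047). Lcn2, looked up likewise, was lower in all 3 DKO kidneys than in any control, at 0.370, 0.571 and 0.405 against 1.06, 0.998 and 0.940 FPKM (adjusted p = 0.2). It was at 49.5, 37.6 and 18.7 FPKM in Tsc2 KO kidneys.

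Stress and inflammation lists gave a few genes each. Of 16 NRF2 targets 2 were called increased and 1 decreased (median 0.03), and of 13 iron genes 1 and 0 (median -0.20). For complement and chemokines the counts were 2 and 0 of 7 (median 0.54). Over all genes 5.37% were increased and 3.05% decreased. Hmox1, heme oxygenase, on the NRF2 and iron lists, rose from 14.3, 6.68 and 10.2 to 52.0, 23.5 and 44.0 FPKM (1.93 ± 0.31, adjusted p = 0.0022) and in DKO 3 alone (adjusted p = 0.0075). Srxn1, sulfiredoxin, rose from 28.3, 23.7 and 29.9 to 49.7, 47.1 and 41.5 FPKM (0.76, adjusted p = 0.0039). Gclm, a subunit of the glutathione-synthesis enzyme, fell from 56.3, 58.1 and 64.6 to 45.1, 35.3 and 42.7 FPKM (-0.54, adjusted p = 0.031; up to 0.12 with 1 library left out). The chemokine gene Cxcl10 rose from 1.49, 3.49 and 1.86 to 11.3, 6.45 and 8.57 FPKM (1.94, adjusted p = 0.0043). Cxcl16, another chemokine gene, rose from 8.93, 11.9 and 11.3 to 17.5, 16.2 and 17.2 FPKM (0.67, adjusted p = 0.011). Of 12 macrophage markers at 5 FPKM 1 was called increased and 1 decreased, against 5.37% and 3.05% over all genes, and 23 of 25 tested had a positive log2 fold change (median 0.80). With the adrenal cortex covariate 4 were called increased and 0 decreased, where 217 and 46 of all 7735 genes at 5 FPKM were. Cd74, the invariant chain of antigen presentation, rose from 92.9, 97.0 and 93.4 to 219, 132 and 346 FPKM (1.30, adjusted p = 0.045; up to 0.17). Csf1r, the macrophage growth factor receptor, fell from 14.9, 11.3 and 12.7 to 6.74, 8.04 and 6.97 FPKM (-0.84 ± 0.18, adjusted p = 0.012). Among 35 autophagy genes 4 were called increased and 1 decreased, against 5.37% and 3.05% over all genes. The adaptor Sqstm1, p62, rose from 146, 111 and 143 to 233, 199 and 194 FPKM (0.65, adjusted p = 0.0063). The protease Atg4b differed by 0.34 and the tethering subunit Vps18 by 0.52, and Rb1cc1, FIP200 of the initiating kinase complex, by -0.57. Of these Sqstm1 alone kept its call without any single library.

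Lists of broad cell function held few calls, where 5.37% of all genes were increased and 3.05% decreased. Cytoplasmic ribosomal proteins had 0 increased and 1 decreased of 77 (median 0.06), namely Rps12 (-0.70, adjusted p = 0.034; up to 0.11, lost in 5 of the 6 fits without 1 library). Ribosome biogenesis had 1 of 19, Utp20 (-0.97, adjusted p = 0.046; up to 0.12, lost in all 6). Of 78 nuclear respiratory chain genes 1 was called, Cox6a2, the muscle isoform of a cytochrome oxidase subunit, which went from 1.85, 1.80 and 1.54 to 20.4, 9.10 and 16.6 FPKM (3.14 ± 0.66, adjusted p = 0.011; 0.057 without control 3). The 13 mitochondrially encoded genes had a median of -0.35 with 0 called, mt-Co1 at -0.66 (adjusted p = 0.079) and mt-Cytb at -0.23 (adjusted p = 0.49). In the glycolysis and HIF list Pgam1, a glycolytic mutase, differed by 0.42 (adjusted p = 0.025). Pdk1, which blocks pyruvate oxidation, differed by -1.19 (adjusted p = 0.017). Each was lost in 3 of the 6 fits without 1 library. Besides Chgb, Slc18a1 and Cyb561 of the adrenal medulla list were called and went down (-0.93, adjusted p = 0.0075) and up (0.85, adjusted p = 0.011). Lists with no called member, each with its median, included extracellular matrix (0.28, 18 members at 5 FPKM), immediate early genes (0.57, 12), kidney endothelium (-0.12, 13), selenoproteins (0.03, 11), insulin and IGF signalling (-0.09, 11), klotho, vitamin D and calcium (-0.27, 11) and cell cycle (0.83, 1). Cell cycle genes were thus nearly all under the level at which a call could be made, although 35 of 40 had a positive log2 fold change.

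**Figure D4:**
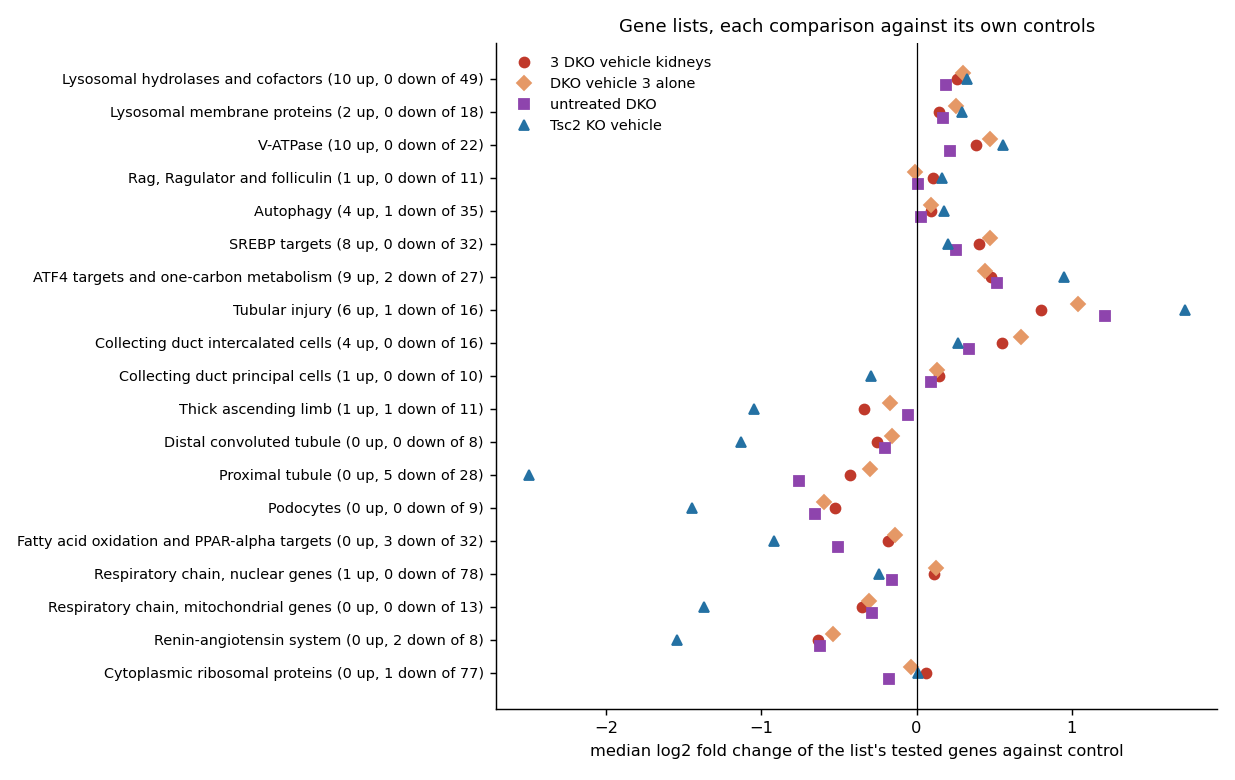
Median log2 fold change against control of the tested genes of each list (horizontal axis) in the 3 DKO vehicle kidneys (circles), DKO vehicle 3 alone (diamonds), the untreated DKO kidneys (squares, against untreated controls) and the Tsc2 KO vehicle kidneys (triangles); beside each list stand its genes called up and down in DKO of those at 5 FPKM. For proximal tubule the DKO median is -0.43 and the Tsc2 KO median -2.50; for lysosomal hydrolases they are 0.26 and 0.33.

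How far these changes differ from those after loss of Tsc2 alone was tested directly, DKO against Tsc2 KO vehicle, within the same fit; it shares the DKO libraries with the comparison against control. Over all genes 16.9% were higher and 12.6% lower in DKO. Of the proximal tubule markers 22 of 28 were higher in DKO and 0 lower. Their summed level was 18832, 14463 and 16422 FPKM in controls, 11133, 7455 and 11044 FPKM in DKO and 2075, 1669 and 2769 FPKM in Tsc2 KO kidneys, with no overlap between genotypes. Of the fatty acid oxidation genes 22 of 32 were higher and 0 lower in DKO. Injury genes went the other way, 12 of 19 being lower in DKO than in Tsc2 KO and 0 higher. Lysosomal hydrolases, with 9 of 51 lower and 6 higher in DKO, were near the shares over all genes. SREBP targets were higher in DKO for 8 of 32 and lower for 0. Adrenal transcripts were present in Tsc2 KO vehicle as well, most in replicate 1 (2174, 91.5 and 42.4 FPKM of the cortex list in Tsc2 KO 1, 2 and 3), and their part in these differences was not tested.

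Some genes lay between control and Tsc2 KO: Hexa was -0.77 log2 units from Tsc2 KO (adjusted p = 0.02), Clcn7 -0.47 (0.0028), Atp6v0d2 -1.23 (0.00054), Cdkn1a -1.42 (0.00043), Lrp2 1.68 (9.5e-06) and Ace 1.36 (0.00017), each with its control difference given above. Akr1c14 was the steepest, at 0.0937, 0.136 and 0.251 FPKM in Tsc2 KO kidneys (5.85, adjusted p = 9.4e-09). For others no difference from Tsc2 KO passed the test: Psap differed by -0.10 (adjusted p = 0.77), Ttr by 0.43 (0.57), Guca2a by -0.49 (0.29), Ddit4 by -0.18 (0.72), Hmox1 by -0.62 (0.15) and Scd2 by -0.05 (0.91), which does not show that the levels are alike. Aqp8 and Pdk1 were among the named genes in which DKO lay beyond Tsc2 KO, on the side away from control. Aqp8 was at 1.54, 3.32 and 8.96 FPKM in Tsc2 KO kidneys, below every DKO kidney (1.98, adjusted p = 0.029). Pdk1 was at 8.52, 6.25 and 6.34 FPKM, above every DKO kidney at 3.10, 3.08 and 5.90 FPKM, with controls at 10.5, 7.95 and 9.14 FPKM (-0.80, adjusted p = 0.041).

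**Figure D5:**
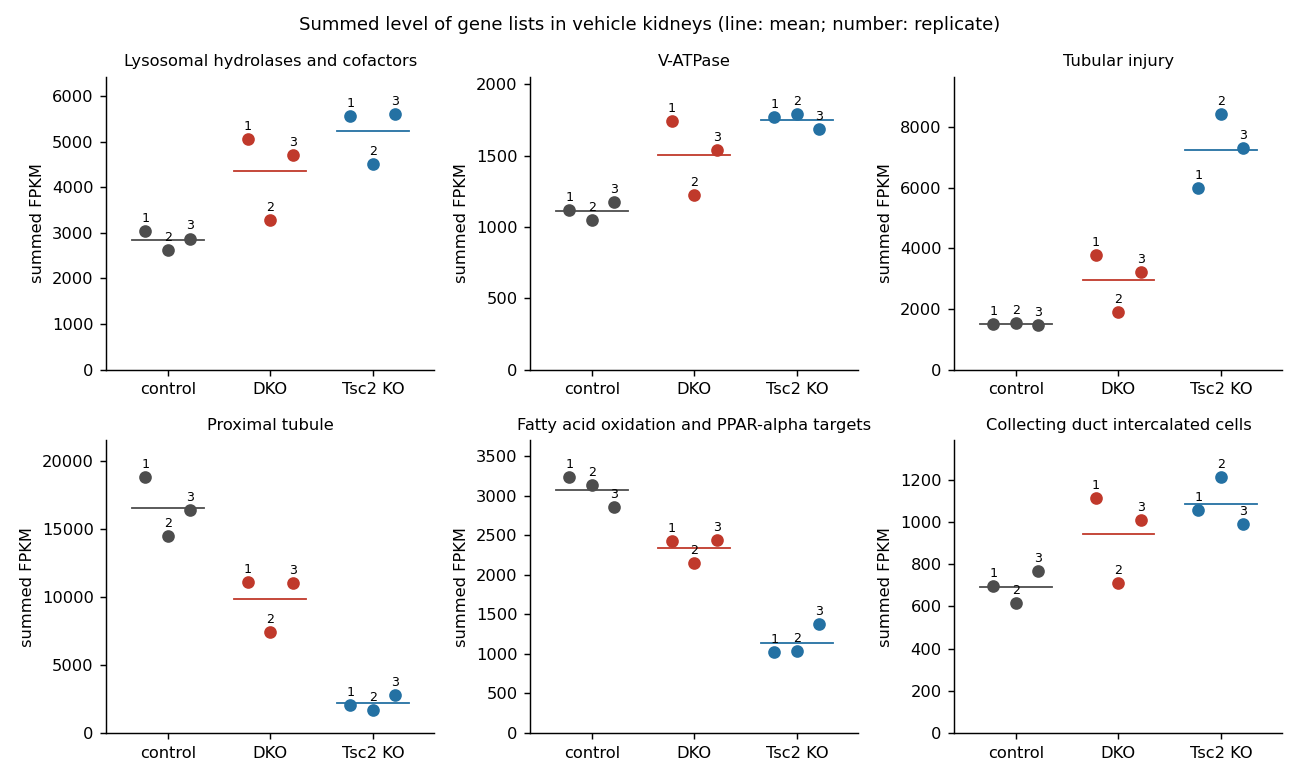
Summed FPKM (from 0) of 6 gene lists in control, DKO and Tsc2 KO vehicle kidneys; points are libraries with their replicate number and lines are group means. Proximal tubule genes fall from control to DKO to Tsc2 KO without overlap, injury genes rise in the same order, and DKO 2 is the lowest DKO kidney in all 6 panels.

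The same genotype contrast in untreated mice gave a comparison that shares no library with the one above. There 179 genes (2.33% of those at 5 FPKM) were called increased and 120 (1.56%) decreased. Of the 415 genes increased with vehicle 410 were tested there and 402 were higher in untreated DKO kidneys, against 41.8% of all genes at 5 FPKM in the vehicle cohort. Called in both were 125 increased genes, 30.1% of the vehicle list and 69.8% of the untreated list. Of the 236 decreased genes 233 were lower in untreated DKO kidneys, and 43 were called in both, 18.2% and 35.8% of the lists. The number called in opposite directions was 0. Restricted to DKO vehicle 3, 95 of 96 increased genes were higher in untreated DKO kidneys and 63 were called there. The counts depend on single untreated libraries: increased genes fell to 43, 63 and 101 without untreated control 1, 2 and 3, and decreased genes to 11, 27 and 71. Without untreated DKO 1 and DKO 3 the decreased genes numbered 47 and 26. Genes increased in both ranged from 40 (without untreated control 1) to 113 (without untreated DKO 1), and those decreased in both from 6 (without untreated control 1) to 29 (without untreated DKO 2). Untreated DKO 1 was itself rich in immune transcripts, at 3699 FPKM of the B cell list and 3924 FPKM of the macrophage list. The other untreated DKO kidneys held 62.6 and 89.2 FPKM and 454 and 619 FPKM. Adrenal cortex genes summed to between 38.9 and 52.0 FPKM in the 6 untreated kidneys.

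Single genes carried over to different degrees. Ttr was at 16.3, 29.8 and 46.2 FPKM in untreated controls and 494, 1229.7 and 1460.2 FPKM in untreated DKO kidneys (5.10, adjusted p = 0.0023). Guca2a was at 3.34, 4.34 and 4.22 and 35.5, 31.7 and 37.7 FPKM (3.14, adjusted p = 0.0044). Hexa was at 28.4, 28.9 and 28.0 and 62.6, 89.5 and 87.4 FPKM (1.49, adjusted p = 0.0058). Psap (0.99, adjusted p = 0.015), Ctsc (1.82, 0.0044), Clcn7 (0.58, 0.045), Atp6v0d2 (1.46, 0.0049), Hmox1 (1.85, 0.012) and Umod (1.09, 0.045) passed the test in both cohorts. Tsc2 and Tfeb were lower there too (-0.72, adjusted p = 0.02, and -0.88, 0.041), and Rragd was higher (0.94, 0.022). Cck did not carry over, at 1.03, 8.05 and 26.7 FPKM in untreated controls and 7.17, 22.8 and 35.4 FPKM in untreated DKO kidneys (0.86, adjusted p = 0.75). Untreated controls 2 and 3 lay within the DKO range. Of the decreased genes Guca2b passed in both cohorts (-1.31, adjusted p = 0.024) and Ehhadh likewise (-1.21, 0.0081). Akr1c14 was lower in every untreated DKO kidney than in every untreated control, at 17.3, 11.3 and 7.34 against 55.0, 46.2 and 52.9 FPKM, without passing the test (-2.10, adjusted p = 0.31). Lrp2 (-0.76, adjusted p = 0.16), Cubn (-0.64, 0.18) and Ace (-1.05, 0.11) had lower means in untreated DKO kidneys that did not pass, whereas 3 other proximal tubule markers were called decreased there. Csf1r, decreased with vehicle, differed by 0.14 (adjusted p = 0.91) in untreated mice. The difference between the cohorts' effects was not tested, since their tables were made separately.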

How the data were processed

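Whole-kidney RNA of 6 vehicle kidneys (3 DKO, 3 control), of the 3 Tsc2 KO vehicle kidneys and of 6 untreated kidneys was analysed from tables with a count and an FPKM value per gene and library. The authors deposited raw counts per gene, not normalized, and FPKM, which they scaled to gene length and library size; the submitters' processing notes name STAR 2.6.1d, HISAT2 2.0.5, featureCounts 1.5.0-p3, DESeq2 1.20.0 and mm10. Libraries were not strand-specific, so reads of a gene and of an antisense neighbour cannot be told apart.

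Counts were tested with edgeR 4.0.16 (R 4.3.3; TMM, filterByExpr, quasi-likelihood test, Benjamini-Hochberg over all genes tested) in one fit of 6 groups and 18 libraries, and the untreated table in its own fit of 4 groups and 12 libraries. Genes were called at 0.05 after adjustment if their deposited FPKM also averaged 5 or more in either group. DESeq2 1.42.0 served as an alternative; the procedure was tested on simulated data. The members and gene lists were chosen with earlier results of these data known. Named were the targeted genes and others the study follows, up to 12 leading genes per direction also called without DKO 1 and 2 and outside the control range in all 3 DKO libraries, and up to 4 called members per list by adjusted p (where none was called, the most abundant 2 for some lists); the largest decreases, Havcr1, Lcn2, Ctsd, Ctsl, Atp6v0b and Cp were named after their values were seen. Some genes that this rule names are not reported here. The labels do not tie replicates to litters, so p-values and SEs measure a spread between mice. That spread was estimated over all groups of each fit, not only those compared.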

Additional observations from a re-analysis of the deposited data

How the results depend on the processing

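Against 415 increased and 236 decreased genes, DESeq2 gave 630 and 433, edgeR on only the 6 libraries compared 132 and 105, and the fit without both DKO libraries with adrenal transcripts 96 and 2. A minimum of 5 FPKM in every library left 256 increased genes, and no FPKM minimum 674. RLE scaling and no filter on low counts stayed within 1.5 times. Leaving out 1 library gave between 178 and 451 increased and between 62 and 312 decreased genes. For DKO 3 alone, leaving out a control gave 52 to 81 increased and 1 to 4 decreased. In untreated mice the ranges were 43 to 145 and 11 to 83; with no FPKM minimum 378 genes were increased. The adrenal cortex covariate and the leave-one-out counts of genes called in both cohorts were chosen after seeing the data: the covariate gave 217 and 46 genes. Genes increased in both cohorts ranged from 40 to 113 with 1 untreated library left out and were 63 without DKO 1 and 2; genes decreased in both ranged from 6 to 29, were 0 without DKO 1 and 2 and 10 with the covariate. In these fits without DKO 1 and 2 only 2 decreased genes could be shared. The cause of these shifts was not tested.

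With the replicate number as a block (replicate block) the vehicle counts were 421 and 221 and the untreated counts 127 and 53. Same-numbered vehicle kidneys correlated at -0.08, 0.18 and -0.07 across their deviations, and not every kidney correlated best with its own number, so the numbers were not taken as pairs. Among named genes, direction reversed for Chgb (-1.76 without DKO 1 and 2, -2.53 with the covariate, and from -2.48 to 10.81 with 1 library left out), Hsd3b1 (-0.43) and Star (-0.10), both without DKO 1 and 2. Of 91 named called genes 49 were called in all 6 fits without 1 library. The call was lost in 39 of 88 with edgeR on only the 6 libraries compared and in 34 with 5 FPKM in every library. With the covariate 37 lost it and 1 more changed direction. Without DKO 1 and 2, which leaves 1 DKO library, most of the 91 lost it and 3 changed direction. The planned Xist covariate was not run, as all libraries were of 1 sex.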
